A study of Mus musculus with 59 samples.

Results

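The carbonic anhydrases are zinc enzymes that interconvert carbon dioxide and bicarbonate, and 6 of their genes, Car2, Car3, Car4, Car5b, Car13 and Car14, were followed across every group of an RNA-seq series of mouse brown adipose tissue (BAT). The genes were chosen by name, as the rows of these members in each of 3 count tables of 55341 genes. The list was drawn up with results of these data known and has no threshold on a value. The tables held 16 carbonic anhydrase genes, and the 6 followed here had the highest mean normalized counts of the 16 in each table. All 6 passed the limit of a mean normalized count above 10 in every fit, so none was left out.

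The 59 male C57BL/6J mice were 8 to 12 weeks old and came from 3 experiments. In the first, all 30 mice received propylthiouracil (PTU), a drug that blocks the synthesis of thyroid hormone, in their food. TH, given as a single injection, was a mixture of the hormones T3 and T4. Of the 20 wild-type (WT) mice among them, 4 were taken without TH and 4 at each of 3, 6, 12 and 24 h after TH, and of the 10 BATKO mice, 5 were taken without TH and 5 at 24 h after it. In the second, control (CTRL) and BATKO mice were kept at 30 °C (4 and 5 mice) or at 4 °C (3 and 4 mice), and the label of this experiment gives 24 h. In the third, CTRL and BATKO mice ate chow (4 and 2 mice) or a high-fat diet (HFD, 4 and 3 mice), and the label gives 3.5 days. Neither the labels nor the methods of the study describe the genetic change, the promoter or the cell type behind the name BATKO, so no targeted gene could be checked.

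Members of the family differ in place and in strength. Car2 and Car13 are cytosolic and active, Car3 is cytosolic with weak activity and is a classic abundant protein of adipocytes and slow muscle, Car5b lies in the mitochondrial matrix, and Car4 and Car14 sit at the cell surface with their active site outside, Car4 by a lipid anchor and Car14 by a membrane span. In fat cells the bicarbonate that these enzymes make feeds the carboxylases of fatty acid synthesis and of pyruvate use, and the enzymes at the surface and in the cytosol help to clear the carbon dioxide and acid of respiration. BAT burns fuel for heat and does so more after cold and TH.

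In GRCm38, Car13 (chr3:14641727-14663002, plus strand), Car3 (chr3:14863512-14872523, plus strand) and Car2 (chr3:14886273-14900770, plus strand) lie in one cluster with Car1 (chr3:14766216-14808368, minus strand). Car3 ends 13749 bases before Car2 begins. Car14 (chr3:95897768-95904691, minus strand) is far away on the same chromosome, Car4 (chr11:84957786-84966044, plus strand) is on chromosome 11, and Car5b (chrX:163976822-164027997, minus strand) is on the X chromosome. Car14 overlaps Aph1a on the other strand by 521 bases, of which 445 are exonic in both genes. The strand setting of the counting was not stated, so part of the Car14 count cannot be told apart from Aph1a. The other 5 genes overlap no annotated gene.

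The promoters of Car5b, which fell after TH, and of Car14, which rose after TH, are shown because these genes moved in opposite directions in the same mice. They are the 250 bases before the RefSeq start in GRCm38.p6, at chrX:164028011-164028260 (minus strand) and chr3:95904686-95904935 (minus strand). The RefSeq table held 3 of the 6 genes, these and Car4. Capitals mark the GC box GGGCGG, a site for Sp-family factors.
Car5b: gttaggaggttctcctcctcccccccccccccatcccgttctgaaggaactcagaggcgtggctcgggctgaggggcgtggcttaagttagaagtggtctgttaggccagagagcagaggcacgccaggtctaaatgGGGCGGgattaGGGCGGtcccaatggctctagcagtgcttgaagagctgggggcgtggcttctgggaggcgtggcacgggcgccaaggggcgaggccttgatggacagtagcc
Car14: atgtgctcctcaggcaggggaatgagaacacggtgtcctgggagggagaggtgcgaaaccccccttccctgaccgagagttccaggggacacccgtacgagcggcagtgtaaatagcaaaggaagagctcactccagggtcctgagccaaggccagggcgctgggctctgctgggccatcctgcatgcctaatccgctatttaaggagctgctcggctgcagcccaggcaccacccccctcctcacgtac
Both strands were searched for AGGTCA, the half-site that TH receptors bind, for AGGTCA repeated after a gap of 4 bases (the DR4 element, which holds the half-site), for GGGCGG and for TATAAA. The Car5b promoter held GGGCGG at 113 and at 102 bases before the start, a motif that 32.7% of 32851 promoter windows of the same length hold. It held none of the other motifs, and the windows of Car14 and Car4 held none of the 4. AGGTCA stood in 14% of all windows, TATAAA in 12.4% and DR4 in 0.0152%. These are matches of letters and not sites of binding. Only 0.0152% of all windows held DR4, so its absence here tells little, and bases outside the windows were not searched.

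The reads assigned to genes per mouse were between 7805938 and 18073627 in the TH experiment, between 8008348 and 12887313 in the temperature experiment and between 7612059 and 11533900 in the diet experiment, and genes of the mitochondrial genome took 39.2% to 55.7% of them. All 6 brown adipocyte markers checked, Ucp1 and Cidea among them, were counted in every library. The summed level of 14 skeletal muscle markers varied widely within groups, from 12.5 to 5912 CPM among CTRL mice at 30 °C and from 19.0 to 10523 CPM among BATKO mice at 30 °C, and 3 mice at 30 °C were above 5000 CPM. The members' calls in the temperature experiment were therefore also computed without those 3 mice, an alternative added after the data were seen. Lymphocyte markers summed to at most 4.66 CPM in any library. In bulk tissue, fewer cells of a type and less RNA per cell cannot be told apart.

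Car3 was the most abundant carbonic anhydrase by far. On the scale of CPM, a count as a share of its library, per kb of exon (CPM per kb), on which genes can be compared, its mean over all mice was 1755 in the TH experiment, 573 in the temperature experiment and 1295 in the diet experiment. The next genes in order were Car5b (25.9), Car13 (25.4) and Car4 (14.0) in the TH experiment, Car4 (33.0), Car13 (16.3) and Car5b (13.9) in the temperature experiment, and Car4 (25.4), Car13 (18.3) and Car5b (13.1) in the diet experiment. Car2 stood between 5.27 and 6.78 and Car14 between 1.09 and 3.29 CPM per kb. By normalized count, Car3 ranked 11, 24 and 5 among the nuclear genes of the 3 tables. In WT mice on PTU alone it took 1.48% to 2.94% of all counts of nuclear genes, and at 24 h after TH 0.0795% to 0.174%.

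**Figure D1:**
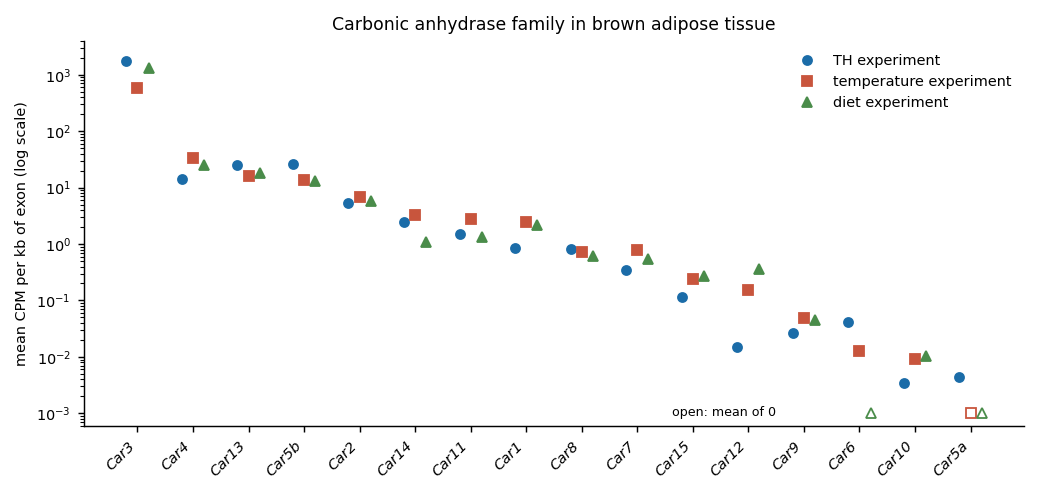
Mean level of each of the 16 carbonic anhydrase genes in each experiment, as CPM per kb of exon on a logarithmic axis, with open symbols where the mean was 0. Car3 stands above every other member in all 3 experiments, at 573 to 1755, while the next genes lie between 13.1 and 33.0.

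Within single groups the order behind Car3 changed. In WT mice on PTU, Car5b was at 47.9 ± 6.43 CPM per kb (SD, n = 4) and Car13 at 37.0 ± 6.56, with ranges that overlapped, both above Car4 at 11.0 ± 2.34, Car2 at 5.46 ± 0.52 and Car14 at 1.93 ± 0.258. In CTRL mice at 4 °C, Car3 was at 79.0 ± 59.6 CPM per kb (SD, n = 3), with its lowest mouse at 23.2, below the mean of Car4 at 32.8 ± 4.03 and of Car13 at 23.8 ± 4.55. This was the group in which Car3 came down to the range of its relatives. In the same mice Car5b was at 11.1 ± 3.09, Car2 at 9.05 ± 1.63 and Car14 at 6.43 ± 1.29, and the ranges of Car5b and Car2, and of Car2 and Car14, overlapped. Those of Car4 and Car13, and of Car13 and Car5b, did not.

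After TH, Car3 fell in WT mice from 12 h on and was the 7th lowest of 13003 genes by log2 fold change at 24 h. Its normalized counts were 98266, 103046, 132711 and 193367 in the 4 mice on PTU alone. They were 35279, 87281, 91366 and 108213 at 3 h and 72006, 72905, 81888 and 89578 at 6 h. The mice at 3 h overlapped the controls, with mouse B11 far below the other 3 of its group and highest in erythroid markers (a sum of 1256 CPM, against 199 to 342 CPM in the other 3), while all mice at 6 h stood below every control. The counts were 27763, 31426, 47548 and 52972 at 12 h and 5097, 6802, 9139 and 11143 at 24 h. Each of these groups lay wholly below the controls, and the mice at 24 h lay below every other WT mouse.

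The means of Car3 were 131848 ± 43752 (SD, n = 4) on PTU and 8045 ± 2647 (SD, n = 4) at 24 h, 16.4-fold lower in the fit. All p are from edgeR (quasi-likelihood test) and adjusted over all genes tested by the Benjamini-Hochberg method, unless DESeq2 is named. The log2 fold change was -0.74 ± 0.29 (SE, adjusted p = 0.119) at 3 h and -0.75 ± 0.29 (SE, adjusted p = 0.0667) at 6 h, neither past the threshold of 0.05. It was -1.71 ± 0.30 (SE, adjusted p = 0.000205) at 12 h and -4.04 ± 0.33 (SE, adjusted p = 1.04e-08) at 24 h. All comparisons share the same 4 control mice. Over the same hours the summed brown adipocyte markers went from 5788 to 7897 CPM on PTU to 8642 to 16281 CPM at 24 h. Of these 6 markers Cox7a1 and Ucp1 were called up and Cidea was called down, with a median log2 fold change of 0.77. The summed white adipocyte markers went from 114 to 124 CPM to 60.3 to 111 CPM. Among them Lep was called up and Mest and Retn called down, with a median log2 fold change of 0.51 over the 5 tested. Skeletal muscle, which also makes Car3, had marker sums of 110.2 to 857 CPM on PTU, 27.2 to 412 CPM at 12 h, where Myl1 was called down, and 365 to 1542 CPM at 24 h, where Mb was called up. The part of these markers in the fall was not tested.

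Car5b, the mitochondrial member, fell with Car3 but less. Its normalized counts were 3324, 3959.5, 4019 and 4633 on PTU, 2330.4, 2555, 2863 and 2942 at 12 h and 1578, 1641, 1890 and 1976 at 24 h. The groups at 12 and 24 h did not overlap the controls, and the mice at 24 h were the lowest of all WT mice. Means at 3 and 6 h were 2935 ± 581 (SD, n = 4) and 2965 ± 587 (SD, n = 4), and both groups overlapped the controls. The log2 fold change was -0.46 ± 0.15 (SE, adjusted p = 0.0523) at 3 h, past the threshold only with DESeq2 and other filters or without mouse B2, B8 or B9 (values from -0.53 to -0.55), -0.44 ± 0.15 (SE, adjusted p = 0.0342) at 6 h, -0.57 ± 0.15 (SE, adjusted p = 0.0068) at 12 h and -1.17 ± 0.15 (SE, adjusted p = 4.32e-06) at 24 h. The call at 6 h was lost when any of 6 of the 8 mice was left out (B3, B4, B5, B12, B15 or B17), with values from -0.36 to -0.45 and adjusted p from 0.0553 to 0.121. It was also lost in a fit of all 30 mice (adjusted p = 0.0855).

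Car13, a cytosolic member, did not pass the test before 24 h. Its normalized counts were 899, 1044, 1151 and 1368 on PTU and 613, 615, 688 and 737 at 24 h. The groups did not overlap, and all 4 mice at 24 h were below every other WT mouse. The log2 fold change was -0.75 ± 0.13 (SE, adjusted p = 0.000127). At 3, 6 and 12 h the means were 1089, 1102 and 968, with log2 fold changes of -0.05, -0.03 and -0.19 (adjusted p = 0.831, 0.876 and 0.285).

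Car14 and Car2 rose at 12 h and were not past the threshold at 24 h. The normalized counts of Car14, the membrane-spanning member, were 53.8, 64.3, 64.7 and 74.9 on PTU, 30.5, 43.5, 128 and 147 at 6 h and 125, 213, 216 and 218 at 12 h. The mice at 6 h split into 2 below and 2 above all controls, and at 12 h all 4 were above the controls, mouse B20 least. At 24 h they were 74.1, 99.8, 110 and 113, of which the lowest lay within the controls. The log2 fold change of Car14 was 1.59 ± 0.34 (SE, adjusted p = 0.00144) at 12 h and 0.63 ± 0.35 (SE, adjusted p = 0.175) at 24 h. With only the 24 h and PTU mice in the fit, the value at 24 h was past the threshold (0.64, adjusted p = 0.0188). Car2 went from 156, 165, 179 and 194 on PTU to 205, 210, 265 and 278 at 12 h, with no overlap. Its log2 fold change at 12 h was 0.48 ± 0.15 (SE, adjusted p = 0.024), and the call was lost without any of 4 mice (B3, B4, B19 or B23), with values from 0.40 to 0.46 and adjusted p from 0.0574 to 0.0787. At 24 h it was -0.11 ± 0.15 (SE, adjusted p = 0.627).

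Car4, the lipid-anchored member, passed the test at no time. Its means were 284 ± 60.4 (SD, n = 4) on PTU and 405 ± 56.2 (SD, n = 4) at 3 h, where the groups overlapped through mouse B4 of the controls, and the log2 fold change was 0.49 ± 0.23 (SE, adjusted p = 0.194). At 24 h the 95% interval of the log2 fold change ran from -0.62 to 0.30.

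**Figure D2:**
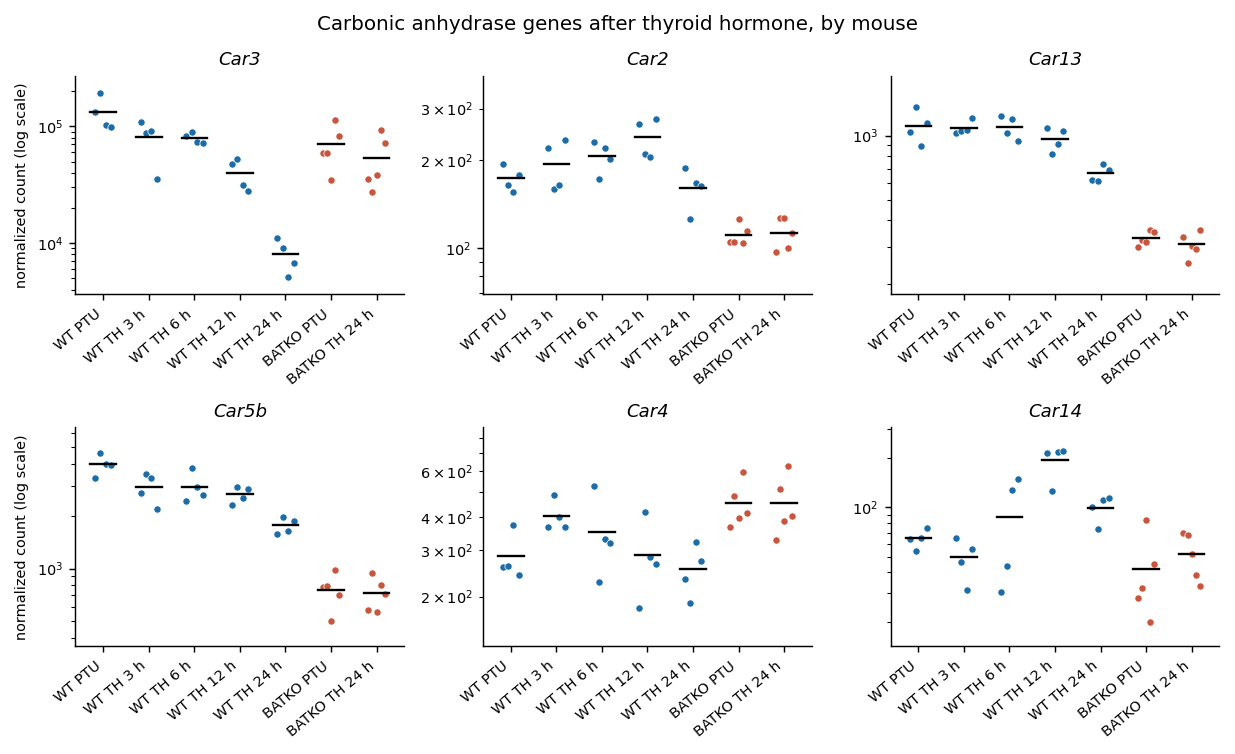
Normalized counts of the 6 genes on logarithmic axes in the TH experiment, with 1 point per mouse (WT blue, BATKO red) and a black line at the group mean. In WT mice Car3 goes from a mean of 131848 on PTU to 8045 at 24 h while the groups of BATKO mice overlap, and Car14 peaks at 12 h.

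A gene is called here where its adjusted p was under 0.05. The members were called in WT mice 0 times of 6 at 3 h, where 9.19% of 13003 genes were called, once at 6 h (23% of genes), 4 times at 12 h (25.7%) and 3 times at 24 h (32.7%). At 3 h, 3 members had an unadjusted p under 0.05 in edgeR (Car3, Car4 and Car5b) and DESeq2 called 1 member among 1389 genes. The median log2 fold change of the members at 24 h was -0.46, beside 0.01 for all genes.

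In BATKO mice no member passed the test at 24 h after TH. Car3 counted 34967, 58661, 59324, 82892 and 114124 on PTU and 27591, 35569.7, 38696, 72539.8 and 93347 at 24 h, 2 groups that overlap over most of their range. The log2 fold change was -0.39 ± 0.32 (SE, adjusted p = 0.969), with a 95% interval from -1.02 to 0.24. That of Car5b was -0.07 ± 0.16 (SE, adjusted p = 0.99) and that of Car13 was -0.10 ± 0.11 (SE, adjusted p = 0.975). With edgeR, 0% of 14178 genes were called in this comparison, 673 genes and 0 members had an unadjusted p under 0.05, and DESeq2 called 0 genes.

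The difference between the responses was itself tested, as an interaction. In BATKO mice the log2 fold change was less negative than in WT mice, by 3.65 ± 0.50 (SE, adjusted p = 2.19e-05) for Car3, by 1.10 ± 0.24 (SE, adjusted p = 0.00293) for Car5b and by 0.65 ± 0.17 (SE, adjusted p = 0.00993) for Car13. These 3 are the genes that fell in WT mice at 24 h, and 12.3% of genes passed this test. For Car2, Car4 and Car14 the interaction was 0.13, 0.16 and -0.31, with adjusted p of 0.728, 0.801 and 0.754.

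On PTU alone, BATKO mice had lower levels of 4 members and a higher level of 1. Car5b counted 501, 704, 785, 798 and 979.7 in BATKO mice, all below the lowest WT mouse of any time point, and its log2 difference from WT was -2.40 ± 0.17 (SE, adjusted p = 2.99e-13). Car13 counted 299.8, 316, 322, 352 and 358, likewise below every WT mouse, with a log2 difference of -1.76 ± 0.12 (SE, adjusted p = 6.20e-14). Car2 was at 111 ± 9.24 (SD, n = 5) against 173 ± 16.5 (SD, n = 4), with no overlap and a log2 difference of -0.64 ± 0.13 (SE, adjusted p = 0.00011). Red cells carry Car2 too. Of the 5 erythroid markers tested, 4 were called higher and 1 lower in BATKO mice. All 7 on the list summed to 208 to 572 CPM against 180 to 280 CPM in WT mice. Their part in the Car2 difference was not tested. Car3 overlapped between the genotypes, with a log2 difference of -0.91 ± 0.34 (SE, adjusted p = 0.0179) that lost its call without WT mouse B3 (-0.69, adjusted p = 0.0905) or without BATKO mouse 4 (-0.74, adjusted p = 0.0556). White adipocyte markers summed to 30.4 to 53.8 CPM in BATKO mice against 114 to 124 CPM in WT mice, with Retn and Mest called lower and Nnat and Lep called higher, and their part in the Car3 difference was not tested. Car4 was higher, at 453 ± 90.5 (SD, n = 5) against 284 ± 60.4 (SD, n = 4), with a log2 difference of 0.67 ± 0.22 (SE, adjusted p = 0.00934). Endothelial cells also carry Car4, and 6 of 7 endothelial markers were higher in BATKO mice, with sums of 485 to 554 CPM against 345 to 384 CPM in WT mice. Their part in the Car4 difference was not tested. Car14 differed by -0.62 ± 0.37 (SE, adjusted p = 0.139), and it was past the threshold without BATKO mouse 4 (-1.04, adjusted p = 0.0137).

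This difference between genotypes covered most of the genes tested, with 70.3% of 14178 called, so that 5 of 6 members is near the background. The libraries of BATKO mice were also larger, from 13593987 to 18073627 reads against 7805938 to 14615534 in WT mice, and the brown adipocyte markers summed to 1675 to 2589 CPM in BATKO mice on PTU against 5788 to 7897 CPM in WT mice on PTU. The labels give no batch or date, and genotype and batch cannot be told apart here. The responses to TH were taken within a genotype.

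Cold lowered Car3 in both genotypes. In CTRL mice its normalized counts were 15760.2, 21838, 26358 and 28867 at 30 °C and 724, 2239.9 and 4418 at 4 °C. In BATKO mice they were 21811, 23872, 29137, 30035 and 37280.5 at 30 °C and 7495, 10542, 11862 and 13186 at 4 °C. Neither genotype overlapped between temperatures, and every BATKO mouse at 4 °C was above every CTRL mouse at 4 °C. The log2 fold change was -3.24 ± 0.45 (SE, adjusted p = 2.28e-05) in CTRL mice and -1.40 ± 0.36 (SE, adjusted p = 0.00565) in BATKO mice, 9.43-fold and 2.64-fold lower. Without the 3 mice with high muscle markers it was -3.28 (adjusted p = 7.86e-05) in CTRL mice and -1.21 (adjusted p = 0.0314) in BATKO mice. Without them Car2, Car13 and Car14 were past the threshold in both genotypes, with adjusted p from 0.00013 to 0.046.

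At 4 °C, Car3 was higher in BATKO than in CTRL mice by 2.13 ± 0.43 (SE, adjusted p = 0.0197) on the log2 scale, one of 286 genes called, 2.16% of those tested. The call was lost without CTRL mouse 2 (2.05, adjusted p = 0.0887) and in a fit of the groups at 4 °C alone (2.13, adjusted p = 0.0748). The interaction of genotype and cold was 1.84 ± 0.54 (SE, adjusted p = 0.0885) and did not pass the threshold in edgeR, and in DESeq2 it was 1.84 with an adjusted p of 0.0119. It was also past the threshold without CTRL mouse 5 at 4 °C (2.58, adjusted p = 0.0127). Without the 3 mice with high muscle markers, the difference at 4 °C was 2.12 (adjusted p = 0.0295) and the interaction 2.07 (adjusted p = 0.174). At 30 °C the log2 difference between genotypes was 0.29 ± 0.35 (SE, adjusted p = 0.776), and 0.045 (adjusted p = 0.986) without those 3 mice. The summed brown adipocyte markers went from 477 to 2172 CPM at 30 °C to 15559 to 19099 CPM at 4 °C in CTRL mice, and from 1021 to 2034 CPM to 8368 to 15798 CPM in BATKO mice. White adipocyte markers summed to 45.9 to 177 CPM at 30 °C and 12.6 to 50.6 CPM at 4 °C in CTRL mice, and to 87.3 to 200 CPM and 28.6 to 93.0 CPM in BATKO mice. The part of these markers in the Car3 result was not tested.

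The cytosolic relatives Car13 and Car2 rose in the cold in both genotypes. Car13 counted 223, 239.5, 254 and 351 at 30 °C and 464, 656 and 665 at 4 °C in CTRL mice. In BATKO mice it counted 188, 209.7, 226, 244 and 275 and 503, 629, 657 and 738. The temperatures did not overlap in either genotype, and the log2 fold change was 1.16 ± 0.18 (SE, adjusted p = 7.63e-05) in CTRL and 1.47 ± 0.16 (SE, adjusted p = 4.93e-06) in BATKO mice. Car2 was at 131 ± 37.4 (SD, n = 4) and 238 ± 42.9 (SD, n = 3) in CTRL mice and at 123 ± 12.7 (SD, n = 5) and 251 ± 60.9 (SD, n = 4) in BATKO mice, again without overlap. Its log2 fold change was 0.87 ± 0.22 (SE, adjusted p = 0.00382) in CTRL and 1.03 ± 0.19 (SE, adjusted p = 0.00052) in BATKO mice. Of the 4 genes of the cluster on chromosome 3, Car3 and Car1 thus fell in the cold in both genotypes while Car2 and Car13 rose. Red cells also carry Car2, and the 7 erythroid markers summed to 177 to 333 CPM at 30 °C and 767 to 1714 CPM at 4 °C in CTRL mice, and to 182 to 495 CPM and 772 to 1112 CPM in BATKO mice. Their part in the rise of Car2 was not tested.

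Car14 rose most of the 6 in CTRL mice, from 20.9, 22.6, 37.0 and 41.6 at 30 °C to 156, 159 and 219 at 4 °C. The groups were far apart, and the log2 fold change was 2.54 ± 0.43 (SE, adjusted p = 0.000127). In BATKO mice it went from 27.4, 53.4, 70.8, 72.1 and 80.6 to 50.9, 75.7, 171 and 196, where 2 of the 4 mice in the cold lay within the range at 30 °C. There the log2 fold change was 1.01 ± 0.36 (SE, adjusted p = 0.0343), and the call was lost without any of 4 mice (8 and 11 at 4 °C, 14 and 15 at 30 °C), with values from 0.68 to 0.96 and adjusted p from 0.0657 to 0.164. The interaction was -1.54 ± 0.56 (SE, adjusted p = 0.149), not past the threshold.

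Car5b rose in the cold in BATKO mice, from 641, 751, 830.4, 919 and 1005 to 825, 1199, 1571 and 1897, with 1 of the 4 mice in the cold inside the range at 30 °C. The log2 fold change was 0.73 ± 0.22 (SE, adjusted p = 0.0131). It lost the call without mouse 8 at 4 °C (0.52, adjusted p = 0.0709) and without the 3 mice with high muscle markers (0.68, adjusted p = 0.0608). In CTRL mice Car5b was at 861 ± 143 (SD, n = 4) at 30 °C and 765 ± 213 (SD, n = 3), with a log2 fold change of -0.17 ± 0.25 (SE, adjusted p = 0.593). The interaction of 0.90 ± 0.33 (SE, adjusted p = 0.153) did not pass. At 4 °C the log2 difference between genotypes was 0.84 ± 0.25 (SE, adjusted p = 0.0936) in edgeR and 0.82 (adjusted p = 0.0309) in DESeq2, and it was past the threshold without BATKO mouse 11 (1.002, adjusted p = 0.0304) or without CTRL mouse 5 (1.06, adjusted p = 0.0451). Car4 was at 610.3 ± 158 (SD, n = 4) and 700.1 ± 86.0 (SD, n = 3) in CTRL mice, and its log2 fold change of 0.20 had a 95% interval from -0.26 to 0.65. In BATKO mice its log2 fold change was 0.14 ± 0.20 (SE, adjusted p = 0.605).

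**Figure D3:**
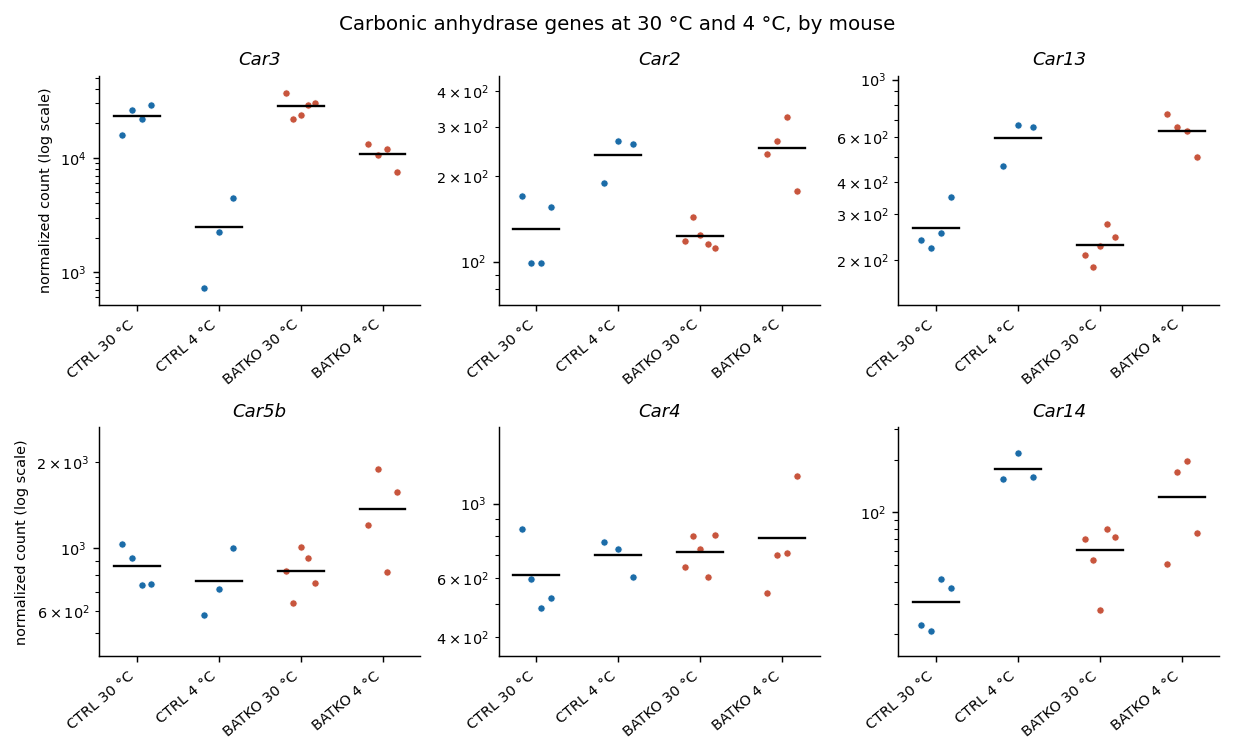
Normalized counts of the 6 genes on logarithmic axes at 30 °C and 4 °C, with 1 point per mouse (CTRL blue, BATKO red) and a black line at the group mean. Car3 goes down in the cold, from a mean of 23206 to 2461 in CTRL and from 28427 to 10771 in BATKO mice, while Car2 and Car13 go up in both.

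Cold called 4 of 6 members in CTRL mice, where 49.1% of 13267 genes were called, and 5 of 6 in BATKO mice (40.3% of genes). No member was called between genotypes at 30 °C, where edgeR called 0.00754% of genes, 1 member (Car14) had an unadjusted p under 0.05 and DESeq2 called 0 members. No member passed the interaction in edgeR, which called 1.12% of genes. There 3 members (Car3, Car5b and Car14) had an unadjusted p under 0.05 and DESeq2 called 1, Car3, among 679 genes of 13267.

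On HFD, Car5b fell in CTRL mice, from 745, 809.7, 843 and 964 on chow to 514, 524, 531 and 585 on HFD, with no overlap. The log2 fold change was -0.64 ± 0.14 (SE, adjusted p = 0.0257), and the call was lost without any of 4 mice (2 on chow, 9, 10 and 11 on HFD), with values from -0.63 to -0.65 and adjusted p from 0.0579 to 0.0726. Car3 counted 33385, 35195, 37067 and 38134 on chow and 19147, 19236, 23751 and 26525 on HFD. These groups did not overlap either, but the log2 fold change of -0.70 ± 0.19 (SE, adjusted p = 0.0534) missed the threshold in edgeR, and DESeq2 called it (-0.70, adjusted p = 0.00739). In CTRL mice the 6 macrophage markers summed to 62.1 to 65.9 CPM on chow and 92.0 to 216 CPM on HFD, with C1qb past the threshold. The 6 brown adipocyte markers summed to 1526 to 3133 CPM and 2731 to 4261 CPM, with Prdm16 and Cox7a1 past it. The 14 skeletal muscle markers summed to 22.7 to 2883 CPM on chow and 19.1 to 698 CPM on HFD. Their median log2 fold change was -2.74, and 0 of the 14 were called. The part of these markers in the falls on HFD was not tested. In CTRL mice 3.94% of 12932 genes were called, and 1 of the 6 members in edgeR, and DESeq2 called 2 members among 867 genes.

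In BATKO mice Car3 counted 49918 and 49929 on chow and 18364, 25878 and 41168 on HFD, again without overlap, with a log2 fold change of -0.81 ± 0.24 (SE, adjusted p = 0.159) from 2 mice against 3. In these mice the brown adipocyte markers summed to 2103 to 3107 CPM and 3758 to 5601 CPM, and the macrophage markers to 137 to 185 CPM and 69.3 to 136 CPM. The skeletal muscle markers summed to 92.0 to 470 CPM on chow and 20.7 to 1547 CPM on HFD. Car3 was past the threshold without BATKO mouse 12 on HFD (-1.17, adjusted p = 0.0362). The log2 fold change of Car5b was -0.45 ± 0.18 (SE, adjusted p = 0.274). No member was called there, where edgeR called 0.0696% of genes, 2 members (Car3 and Car5b) had an unadjusted p under 0.05 and DESeq2 called 0 members. Between genotypes edgeR called 0% of genes on chow and 0% on HFD, and 0% for the interaction with diet, where 1024, 691 and 740 genes had an unadjusted p under 0.05 and DESeq2 called 31, 9 and 0 genes. Among the members, 1 had an unadjusted p under 0.05 in these 3 comparisons, Car13 on HFD (log2 difference 0.46 ± 0.17, adjusted p = 0.884), and DESeq2 called 0. The other members gave log2 fold changes on HFD in CTRL mice of -0.21 (Car2), -0.24 (Car4), 0.02 (Car13) and 0.08 (Car14), with adjusted p from 0.418 to 0.944.

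**Figure D4:**
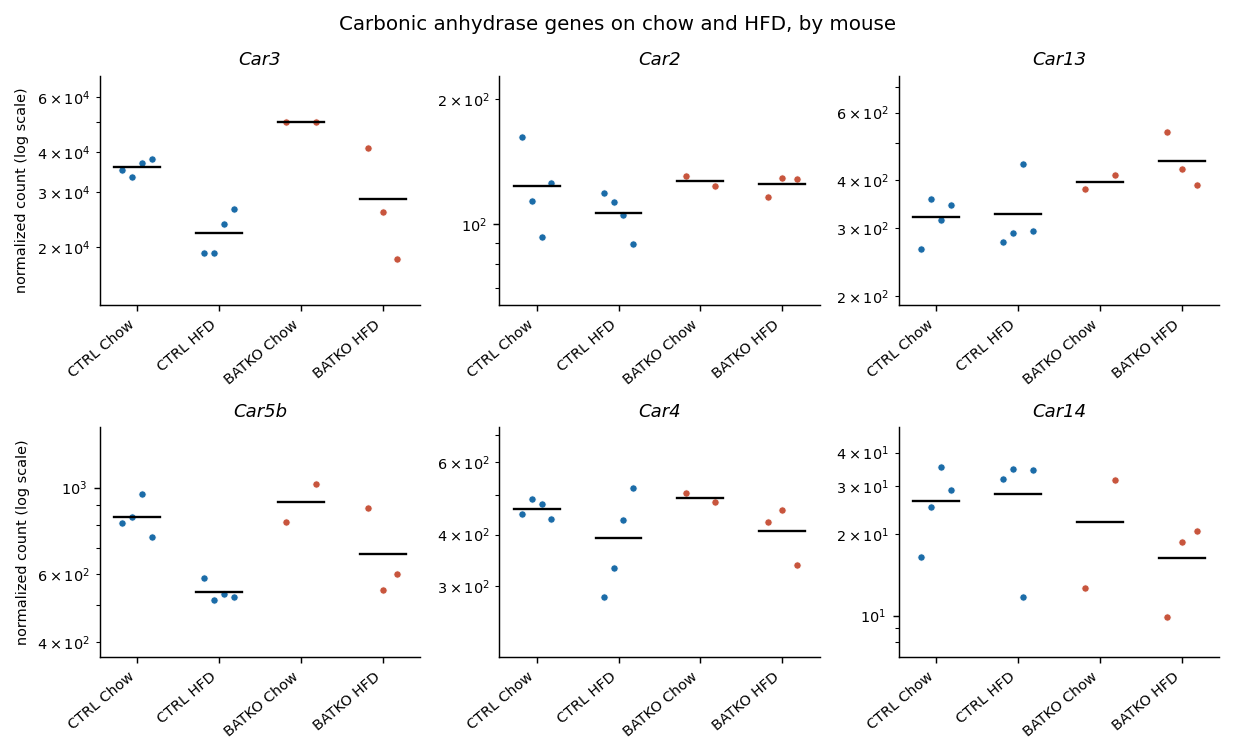
Normalized counts of the 6 genes on logarithmic axes on chow and HFD, with 1 point per mouse (CTRL blue, BATKO red) and a black line at the group mean. Car3 has means of 35945 on chow and 22165 on HFD in CTRL mice and 49923 and 28470 in BATKO mice, and Car5b is lower on HFD in CTRL mice.

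**Figure D5:**
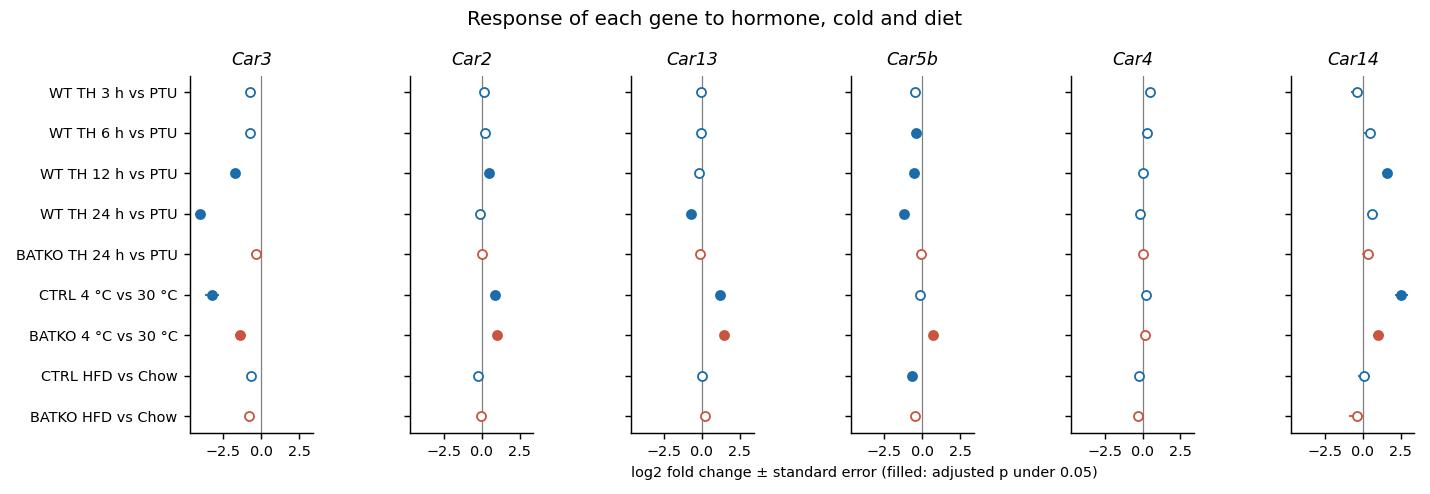
Log2 fold change of each gene with its standard error for each treatment within a genotype (WT and CTRL blue, BATKO red), filled where the adjusted p was under 0.05. Car3 is below 0 in all 9 comparisons and filled in 4 of them, Car2 and Car13 are filled above 0 in the cold, and Car4 is filled nowhere.

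Levels of the members across the 59 mice, on the log2 CPM scale and centred within each experiment, went together to different degrees. Pearson's r was 0.82 between Car13 and Car2, 0.79 between Car13 and Car5b and -0.51 between Car3 and Car14. Between Car3 and its neighbours it was -0.26 for Car2 and -0.10 for Car13. Of 8478 genes, those most like Car3 were Enpp2 (0.91), which encodes autotaxin, Adipoq (0.88), which encodes adiponectin, and Pde1a (0.88). The most like Car4 were Pecam1, Gtf2f1 and Lrg1, each at 0.67. The most like Car5b was Gstz1 (0.93), Car13 Lclat1 (0.95), Car2 Nsun3 (0.87) and Car14 Poln (0.76). Some of these do not hold in each experiment, and among the mice of the diet experiment r was -0.15 for Car2 with Nsun3, 0.21 for Car14 with Poln and 0.14 for Car4 with Pecam1. The mice of an experiment share their treatments, and the levels were not centred by genotype. The difference between WT and BATKO mice in the TH experiment is thus part of r, and these values are a description.

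The other 10 carbonic anhydrases were low, and 4 of them passed the filter in the TH experiment and 5 in the others. Car11, a family member without catalytic activity, rose in WT mice from 17.0 ± 9.92 (SD, n = 4) on PTU to 63.8 ± 6.65 (SD, n = 4) at 12 h, with log2 fold changes of 1.12 ± 0.27 (SE, adjusted p = 0.00445) at 6 h, 1.86 ± 0.26 (SE, adjusted p = 1.89e-05) at 12 h and 1.63 ± 0.26 (SE, adjusted p = 5.98e-05) at 24 h. Car1, the cytosolic gene next to Car3, fell at 24 h (-1.41 ± 0.40, adjusted p = 0.00999), in the cold in CTRL mice (-4.68 ± 0.56, adjusted p = 4.91e-06), in the cold in BATKO mice (from 50.7 ± 7.16 (SD, n = 5) to 12.5, adjusted p = 0.000399) and on HFD in CTRL mice (-1.61 ± 0.34, adjusted p = 0.0201). It was higher in BATKO than in CTRL mice at 4 °C (2.54 ± 0.63, adjusted p = 0.045), where its mean was 12.5 ± 7.75 (SD, n = 4) against 2.15 ± 2.02 (SD, n = 3). Car12, a membrane member, was counted at 16.0 ± 3.88 (SD, n = 4) in CTRL mice at 30 °C and had 0 counts in all 3 CTRL mice at 4 °C. Car8, also without activity, rose in the cold in CTRL (1.00 ± 0.27, adjusted p = 0.00581) and BATKO mice (0.91 ± 0.23, adjusted p = 0.00538). Car5a, the other mitochondrial enzyme, had at most 1 count in any mouse.

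Among 13 bicarbonate transporters, 6 were tested. In WT mice 2 rose and 1 fell at 24 h, and in the cold 3 rose and 2 fell in CTRL mice and 2 rose and 2 fell in BATKO mice. These shares stand beside 32.7%, 49.1% and 40.3% of all genes called. Slc26a6, an anion exchanger, rose at every time after TH in WT mice, by 1.31 ± 0.27 (SE, adjusted p = 0.00346) at 3 h and 2.07 ± 0.26 (SE, adjusted p = 3.98e-06) at 24 h, on the log2 scale. In the cold it rose 4.92-fold in CTRL mice (adjusted p = 1.03e-05) and 1.77-fold in BATKO mice (adjusted p = 0.0151). In BATKO mice after TH 0 of the 6 transporters were called, as were 0% of all genes, and the response of Slc26a6 was below that of WT mice by the interaction (-1.68 ± 0.40, adjusted p = 0.00643). Slc4a7, a sodium bicarbonate cotransporter, fell in the cold in CTRL (-2.02 ± 0.23, adjusted p = 3.83e-06) and BATKO mice (-1.07 ± 0.19, adjusted p = 0.000393). Slc4a4, of the same family, fell at 24 h after TH (-1.59 ± 0.42, adjusted p = 0.0057) and rose in the cold in CTRL (2.22 ± 0.27, adjusted p = 5.41e-06) and BATKO mice (2.33 ± 0.24, adjusted p = 2.39e-06).

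Among 8 carboxylase genes that use bicarbonate, 7 were tested, and in the cold 6 rose and 0 fell in CTRL mice and 4 rose and 0 fell in BATKO mice, where 49.1% and 40.3% of all genes were called. Acacb, the acetyl-CoA carboxylase that governs fatty acid oxidation, rose by 1.05 ± 0.16 (SE, adjusted p = 4.87e-05) in CTRL and by 0.53 ± 0.14 (SE, adjusted p = 0.00639) in BATKO mice on the log2 scale. Acaca, the acetyl-CoA carboxylase of fatty acid synthesis, rose by 1.12 ± 0.31 (SE, adjusted p = 0.0068) in CTRL and by 1.12 ± 0.27 (SE, adjusted p = 0.00391) in BATKO mice. Pcca, a subunit of propionyl-CoA carboxylase, rose by 0.99 ± 0.17 (SE, adjusted p = 0.000144) in CTRL and by 0.44 ± 0.15 (SE, adjusted p = 0.0263) in BATKO mice. The median of the 7 was 0.74 in CTRL mice, beside -0.01 for all genes. At 24 h after TH in WT mice, where 32.7% of genes were called, 1 rose, Acacb (0.70 ± 0.17, adjusted p = 0.00296), and 3 fell, Mccc1 (-0.42 ± 0.12, adjusted p = 0.00824), Mccc2 and Pccb.

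Among 8 genes of proton and lactate export, 5 were tested. In the cold 2 rose and 2 fell in CTRL mice and 1 rose and 2 fell in BATKO mice, and in WT mice at 24 h after TH 2 rose and 1 fell. All genes were called at 49.1%, 40.3% and 32.7% in these comparisons. The lactate carriers Slc16a1 and Slc16a7 went in opposite directions, Slc16a1 up and Slc16a7 down, in the cold in CTRL mice (2.01 ± 0.21, adjusted p = 1.71e-06 and -2.61 ± 0.29, adjusted p = 2.18e-06) and in WT mice at 24 h after TH (0.52 ± 0.14, adjusted p = 0.00535 and -1.71 ± 0.32, adjusted p = 0.000324).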

How the data were processed

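RNA from brown adipose tissue of 59 mice was extracted with Trizol, made into libraries with the SENSE total RNA kit and sequenced on a NextSeq 500. Reads were mapped to mm10 (GRCm38) with Bowtie2 2.3.2.2, per the labels, and the authors deposited 3 tables of raw read counts per gene from htseqcount. The annotation and strand setting are not given in the sources used here. The carbonic anhydrases and the gene lists were chosen with earlier results of these data known.

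Each table was fitted by itself in R 4.3.3 with edgeR 4.0.16 (TMM, mean normalized count above 10, quasi-likelihood test, Benjamini-Hochberg adjusted p under 0.05 over all genes tested). WT mice of the TH experiment were fitted together for the time course, and all 30 mice for comparisons with BATKO. Other named genes were up to 3 per list and comparison with the lowest adjusted p among those called. Slc26a6 (BATKO) and Acaca (CTRL) in the cold and Pccb at 24 h lie outside this rule and were added after their values were seen. For BATKO against WT mice on PTU all 4 white adipocyte markers called are named, which also goes beyond the rule. Alternatives were DESeq2 1.42.0, other scaling and filters, fewer or more groups, and leaving out each mouse. Scripts were tested on simulated counts. Positions are from GENCODE vM21. Normalized counts are counts scaled to the mean effective library size of their table. The TMM factors that enter this size were 0.716 to 0.826 in CTRL mice at 4 °C and 0.934 to 1.29 at 30 °C. In BATKO mice they were 0.828 to 0.992 at 4 °C and 1.03 to 1.35 at 30 °C. The size of each change in the cold thus depends on this scaling. No 2 mice of a group were alike within counting noise.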

Additional observations from a re-analysis of the deposited data

Results flagged for a closer look

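The responses of Car3, Car5b and Car13 to TH at 24 h differed between BATKO and WT mice by the test of the interaction, with log2 fold changes less negative in BATKO mice by 3.65, 1.10 and 0.65.

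The 6 genes were looked at in each group of 4 or 5 mice, which makes 72 combinations of gene and group. In 4 of them 1 mouse stood far from the others by the ratio of its gap to the range of the group. Chance flags about 1 combination in 20. Mouse 10 of CTRL mice on HFD stood apart for 2 genes, with a Car13 count of 441 against 276 to 295 in the other 3 (ratio 0.886) and a Car14 count of 11.7 against 31.9 to 34.8 (ratio 0.876). Mouse B20 of the WT mice at 12 h had a Car14 count of 125 against 213 to 218 (ratio 0.947). Mouse B4 of the WT mice on PTU had a Car4 count of 373 against 242 to 262 (ratio 0.848). All counts are normalized.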

How the results depend on the processing

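Of 27 member results past the threshold, none turned its direction. They stayed past it in 181 of 185 refits under the other settings and in 229 of 251 refits without 1 mouse, and the mice behind each lost call stand beside that result. The number of members called was 2 in place of 1 in CTRL mice on HFD with DESeq2, with no filter, with a mean count above 50 and with only the groups compared, each time through Car3. In BATKO mice on HFD it was 1 in place of 0 with no filter, where 336 of 25975 genes were called in place of 9 of 12932. For BATKO against CTRL mice at 4 °C it was 2 in place of 1 with DESeq2, through Car5b, and 0 with only the groups compared, and for the interaction with cold 1 in place of 0 with DESeq2. In WT mice at 3 h it was 1 in place of 0 with DESeq2 and with a mean count above 50, through Car5b, and 2 with no filter, Car3 and Car5b. At 6 h in WT mice it was 2 in place of 1 with no filter and with only the groups compared, through Car3, and 0 with all 30 mice. At 24 h in WT mice it was 4 in place of 3 with only the groups compared, through Car14. Car14 in the cold in BATKO mice lost its call with only the groups compared (adjusted p = 0.0715). With the replicate block over the 3 numbers that WT and BATKO mice on PTU share, a block that no label ties to a litter or day, 5 members were called and Car3 was at -1.47. The causes of these changes were not tested.

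Without 1 mouse the number called ran from 3 to 5 in BATKO mice in the cold, 4 to 5 for BATKO against WT, 3 to 4 at 12 h, 0 to 2 for BATKO against CTRL at 4 °C, and 0 to 1 in CTRL mice on HFD, in BATKO mice on HFD, in WT mice at 3 h and 6 h and for the interaction with cold. Values that changed sign belong to results that missed the threshold. Car4 in BATKO mice after TH was 0.013 with DESeq2 and with RLE size factors and 0.0047 with only the groups compared, and its interaction with cold was 0.060 without the 3 mice with high muscle markers. The log2 values without 1 mouse follow as lowest to highest. For BATKO against CTRL at 4 °C they were Car13 -0.064 to 0.17, Car2 -0.089 to 0.20, Car4 -0.12 to 0.29. In CTRL mice on HFD they were Car13 -0.17 to 0.097, Car14 -0.11 to 0.34. In WT mice at 3 h they were Car13 -0.15 to 0.061. In WT mice at 6 h they were Car13 -0.13 to 0.083. In BATKO mice on HFD they were Car14 -0.92 to 0.40, Car2 -0.067 to 0.021. For BATKO against CTRL on chow they were Car14 -1.07 to 0.25, Car2 -0.089 to 0.18, Car5b -0.043 to 0.28. For the interaction with TH they were Car14 -0.48 to 0.12, Car4 -0.0068 to 0.29. For the interaction with diet they were Car14 -0.995 to 0.32, Car3 -0.48 to 0.15, Car4 -0.16 to 0.16, Car5b -0.043 to 0.37. In BATKO mice after TH they were Car2 -0.025 to 0.072, Car4 -0.14 to 0.12, Car5b -0.18 to 0.046. For BATKO against CTRL at 30 °C they were Car2 -0.20 to 0.065, Car5b -0.14 to 0.046. For BATKO against CTRL on HFD they were Car3 -0.0028 to 0.61, Car4 -0.069 to 0.23. In BATKO mice in the cold they were Car4 -0.14 to 0.27. In WT mice at 12 h they were Car4 -0.22 to 0.19. In WT mice at 24 h they were Car4 -0.29 to 0.0024. For the interaction with cold they were Car4 -0.32 to 0.087.

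The groups of 2 to 5 mice set the limit of precision, with 2 BATKO mice on chow the smallest, and Car14, at 9.87 to 219 normalized counts, has the fewest reads.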
